A study of Mus musculus with 12 samples.

Results

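The receptors of the common gamma chain cytokines were measured with their kinase and their transcription factors in CD8+ T cells from mouse tumors, in cells that did or did not express a reporter of the adenosine receptor A2AR. The 10 genes were defined by what they encode. Il2ra, Il7r, Il15ra, Il21r and Il4ra encode the private receptor chains, each specific to 1 member of the family, Il2rb encodes the beta chain shared by the IL-2 and IL-15 receptors, Il2rg encodes the common gamma chain, Jak3 encodes the kinase bound to that chain, and Stat5a and Stat5b encode both forms of STAT5. They are 10 of the 52636 gene identifiers in the table, and each of the 10 was among the 14173 genes that passed the filter on low counts. The question was whether receptor transcripts were lower where STAT5 target transcripts were lower in GFP+ cells.

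The data were 12 libraries of QuantSeq 3′ RNA-sequencing, in which each transcript is read near its polyA tail. All came from A2AR eGFP reporter mice, which carry a transgene with eGFP under the regulatory sequences of Adora2a on a C57BL/6 background, and which were injected subcutaneously with 500000 AT3ova cells, a mouse breast cancer line made to express ovalbumin. CD8+ tumor-infiltrating lymphocytes were sorted at day 21 into GFP+ and GFP- cells, from non-treated mice or from mice given anti-PD-L1 at days 14 and 18. Each of the 4 groups had 3 libraries, named KT13 to KT24 by their codes, and each library pooled 3 mice. The groups were non-treated GFP- (KT14, KT16, KT18), non-treated GFP+ (KT13, KT15, KT17), anti-PD-L1 GFP- (KT20, KT22, KT24) and anti-PD-L1 GFP+ (KT19, KT21, KT23). Values of 3 libraries are given below in this order of codes. The labels give no age and no batch and do not tie GFP+ to GFP- libraries, and GFP marks activity of the transgene and not the receptor protein.

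The common gamma chain is a subunit of the receptors for IL-2, IL-4, IL-7, IL-9, IL-15 and IL-21. When a cytokine joins its receptor chains, JAK3 on the gamma chain and JAK1 on a partner chain phosphorylate STAT proteins. For IL-2 and IL-15 that partner is the shared beta chain. STAT5 is the main one after IL-2, IL-7 and IL-15, STAT6 after IL-4, and STAT3 after IL-21. In CD8+ T cells these signals sustain naive and memory cells and drive the growth of effector cells. STAT5 induces its own feedback inhibitors, among them the proteins encoded by Cish and Socs2.

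In the counts that follow, a gene was called when edgeR's quasi-likelihood test, adjusted by the Benjamini-Hochberg method over all genes tested, gave an adjusted p under 0.05. KT13 and KT21, both GFP+, stood apart from the other libraries, with a median Spearman correlation across genes of 0.941 and 0.936, against 0.967 to 0.977 for the other 10. Results are therefore given over all 12 libraries and over the 10 without KT13 and KT21, a choice made from these same data. Total counts were between 11292699 and 19023900 per library. In non-treated cells they were 16440398 to 19023900 in GFP- and 11292699 to 15659705 in GFP+ libraries, which did not overlap. After anti-PD-L1 they were 13413916 to 13760772 and 12881695 to 15746937, which did. Levels are in counts-per-million (CPM) after TMM normalization. The sort was checked by Adora2a, the gene behind the reporter, whose log2 fold change of GFP+ against GFP- was 1.52 averaged over treatments (SE 0.138, adjusted p = 0.000365). The CD8 T cell markers were present in every library, where the 8 summed to 3800 to 6360 CPM, and Cd4 was at most 0.919 CPM.

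Where the genes lie matters for how 3′ reads can be assigned (mouse GRCm38, GENCODE annotation). Il2ra (chromosome 2, 11642807 to 11693193, plus strand) and Il15ra (chromosome 2, 11705290 to 11734317, plus strand) are neighbours, with 12096 bases between them and no other protein-coding gene. Il4ra (chromosome 7, 125552120 to 125579474, plus strand) and Il21r (chromosome 7, 125603429 to 125633570, plus strand) are neighbours as well, 23954 bases apart. Stat5b (chromosome 11, 100780731 to 100850724, minus strand) and Stat5a (chromosome 11, 100859351 to 100885169, plus strand) lie head to head with 8626 bases between their starts. Il7r lies on chromosome 15 from 9505788 to 9530176 and Il2rb on the same chromosome from 78479256 to 78495271, both on the minus strand. Il2rg is on the X chromosome (101264378 to 101268255, minus strand) within the longer annotated gene Gm20489 of the same strand. Jak3 (chromosome 8, 71676296 to 71690575, plus strand) shares its 3′ end with Insl3 on the same strand, and the 3′ end of Stat5a overlaps that of Stat3 on the opposite strand. Il2ra overlaps Gm37881 on the same strand, and Il4ra overlaps Gm44876 on the opposite strand. Gm20489, Insl3 and Gm44876 were at 0 counts in every library, Gm37881 had 0 to 30 and Stat3 3156 to 7181. Reads in a shared stretch could be lost or split by the counting, so the counts of Il2ra, Il4ra, Il2rg, Jak3 and Stat5a are uncertain to that extent.

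The promoter of Il7r is printed because Il7r was the one receptor gene of the 10 that was called between GFP+ and GFP- cells. It was also the one of the 9 genes with an entry in the RefSeq promoter table (GRCm38.p6) whose 250 bases before the start held TTCNNNGAA, the palindrome that STAT5 binds. Of all 32851 promoter entries, 7.02% held these letters in the same window, and since the motif is its own reverse complement both strands are covered. The promoter of Lta, which encodes lymphotoxin alpha, is printed beside it as another gene that was lower in GFP+ cells. It was picked after its values were seen. Both windows are written 5′ to 3′ on the strand of the gene, at chr15:9529877-9530126 (minus strand) for Il7r and chr17:35205352-35205601 (minus strand) for Lta, with the matches in capitals:
Il7r: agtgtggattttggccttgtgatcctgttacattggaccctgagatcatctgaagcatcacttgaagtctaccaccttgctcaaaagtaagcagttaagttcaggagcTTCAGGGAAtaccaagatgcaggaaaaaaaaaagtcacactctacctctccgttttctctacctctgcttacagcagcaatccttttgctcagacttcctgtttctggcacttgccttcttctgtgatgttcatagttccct
Lta: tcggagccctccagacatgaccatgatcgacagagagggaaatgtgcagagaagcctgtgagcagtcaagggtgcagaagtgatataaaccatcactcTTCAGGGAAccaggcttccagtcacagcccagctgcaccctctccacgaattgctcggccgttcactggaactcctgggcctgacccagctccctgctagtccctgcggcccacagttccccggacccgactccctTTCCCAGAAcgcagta

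In the Il7r window the match TTCAGGGAA begins 142 bases before the RefSeq start. That start differs from the GENCODE one given above, 9530176, and the printed window lies inside the GENCODE gene. The Lta window holds TTCAGGGAA at 152 bases and TTCCCAGAA at 16 bases before the start. Among the 26 STAT5 target genes described below, 22 had an entry, and 4 of these (18.2%) held the motif, namely Socs3, Ifng, Lta and Tnfrsf18. No match was found in this window of Cish. A match describes the letters only.

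Il7r, the chain that recognises IL-7, was lower in GFP+ than in GFP- cells in both treatments. It was at 70.6, 75.6 and 73.3 CPM in the non-treated GFP- libraries and at 48.9, 47.6 and 50.3 in the non-treated GFP+ libraries. Under anti-PD-L1 it was at 106, 94.4 and 97.9 CPM in GFP- and 62.8, 69.8 and 60.4 in GFP+ libraries. All 3 GFP+ libraries lay below all 3 GFP- libraries of the same treatment, which 146 of the 14173 genes tested (1.03%) did in both treatments. Averaged over treatments, the log2 fold change of GFP+ against GFP- was -0.60 (SE 0.0938, 95% interval -0.80 to -0.40, adjusted p = 0.0131), or 0.658 times the GFP- level. Over the 10 libraries it was -0.63 (SE 0.0932, adjusted p = 0.000467). In bulk libraries, fewer cells that express a gene and less RNA per cell cannot be told apart.

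The difference was of like size in the separate treatments. In non-treated cells the log2 fold change of Il7r was -0.58 (adjusted p = 0.316), and -0.58 over the 10 libraries (adjusted p = 0.0567). After anti-PD-L1 it was -0.63 (adjusted p = 0.209), and -0.69 over the 10 libraries (adjusted p = 0.0178). The interaction of GFP and treatment was -0.05 (95% interval -0.45 to 0.35). An exact permutation test of the averaged difference in log2(CPM + 0.5), two-sided, gave p = 0.005, the smallest that its 400 relabellings within treatments allow. The averaged call was lost, at an adjusted p of up to 0.0837, when KT16, KT18, KT20, KT22 or KT24 was left out, all of them GFP- libraries, while the log2 fold change stayed between -0.64 and -0.56 in these 12 fits.

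Il7r was also higher after anti-PD-L1 than in non-treated cells, in GFP+ and in GFP- libraries alike. The averaged log2 fold change was 0.42 (SE 0.0936, adjusted p = 0.0893), which was not called over all 12 libraries and was called over the 10, at 0.39 (adjusted p = 0.0316). Within GFP+ cells it was 0.39 and within GFP- cells 0.44. In the order of their means, anti-PD-L1 GFP- (99.3 ± 5.78 CPM, SD, n = 3) came first, then non-treated GFP- (73.1 ± 2.50), anti-PD-L1 GFP+ (64.3 ± 4.93) and non-treated GFP+ (48.9 ± 1.36). No ranges of neighbouring groups overlapped, although the middle groups came close, at 70.6 and 69.8 CPM. Of all genes tested, 4.66% were higher in every anti-PD-L1 library within GFP+ cells, and 6.08% within GFP- cells.

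**Figure D1:**
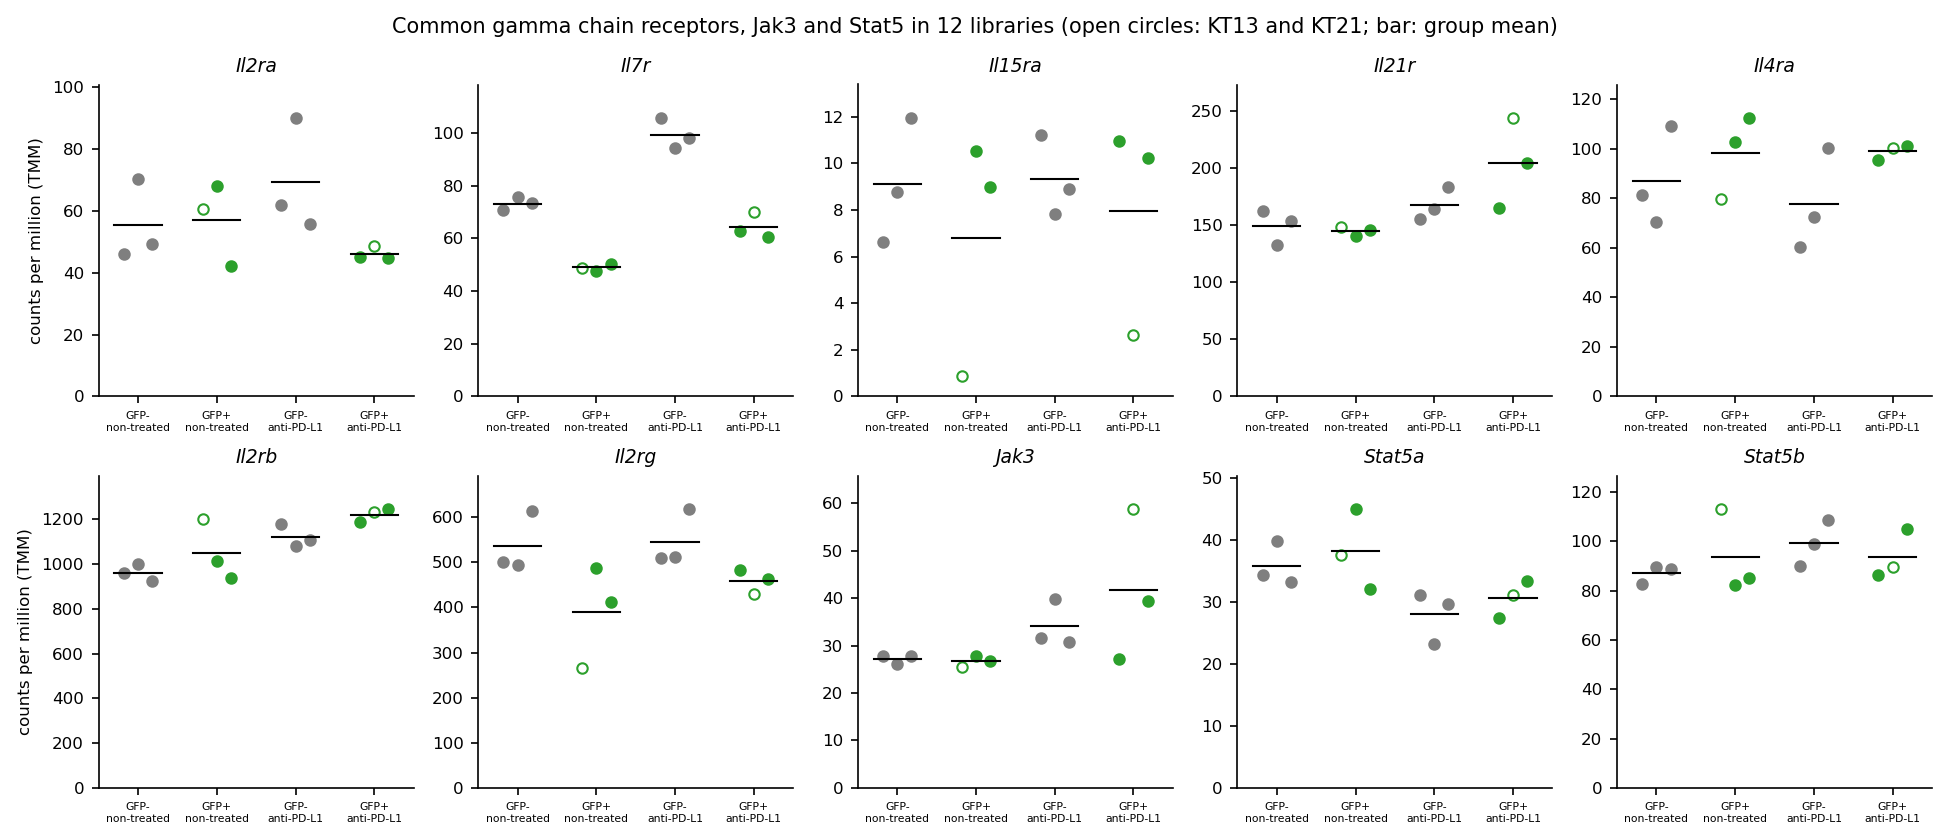
TMM-normalized CPM of the 10 genes (vertical axis, from 0, a separate scale in each panel) in each of the 12 libraries, by GFP and treatment, with a bar at the mean of each group of 3 and open circles for KT13 and KT21. Il7r is the gene whose 4 groups do not overlap, and Il15ra is lowest in KT13 and KT21.

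Genes listed as markers of other cells differed between the groups. The 5 NK markers summed to 142 to 158 CPM in non-treated GFP-, 215 to 249 in non-treated GFP+, 97 to 126 in anti-PD-L1 GFP- and 188 to 262 in anti-PD-L1 GFP+ libraries. Klrb1c (1.26, adjusted p = 0.00406), Fcer1g (1.02, 0.0102) and Tyrobp (0.80, 0.0174) were called higher in GFP+ cells averaged over treatments. The GFP difference of Tyrobp was larger after anti-PD-L1, with an interaction of 1.06 (unadjusted p = 0.00113), and 1.13 over the 10 libraries (unadjusted p = 0.000819). That interaction was not called in either set. The call of Fcer1g was lost without KT18, KT22 or KT24, and that of Tyrobp without KT14, KT18, KT19, KT22 or KT24. Eomes was at 0.11, and Ncr1, the defining NK receptor, was at 1.21 to 6.65 CPM. For GFP Ncr1 was at 0.72 averaged (adjusted p = 0.528), at 0.24 in non-treated cells and at 1.21 after anti-PD-L1, where every GFP+ library was higher (unadjusted p = 0.0122, adjusted p = 0.993). In that comparison 5.31% of all genes were higher in every GFP+ library. Of the 8 CD8 T cell markers, 5 were lower in GFP+ cells averaged over treatments and none was called over all 12 libraries, with 4 at an unadjusted p under 0.05 (8.18% of all genes), while over the 10 libraries all 8 were lower and 3, Cd8b1, Cd8a and Thy1, were called (1.08% of all genes). Cd8b1 was at -0.47 and Cd8a at -0.27 for GFP (adjusted p = 0.124 and 0.35, and 0.00209 and 0.0333 over the 10 libraries). Cd8a was at -0.47 in non-treated cells and -0.08 after anti-PD-L1, where its groups overlapped, with an interaction of 0.39 (unadjusted p = 0.0377, adjusted p = 1). Cd3d (0.18), Cd3e (0.09) and Trac (0.16) lay above 0 over all 12 libraries, with intervals that spanned 0. The 10 macrophage markers summed to 133 to 199, 195 to 247, 75 to 120 and 81.7 to 156 CPM in the same order of groups, and C1qa (adjusted p = 0.0317) and Lyz2 (-1.50, adjusted p = 0.0461) were called lower after anti-PD-L1, as was Tyrobp (-0.71), and these calls were lost in 8, 8 and 10 of the 12 fits that left out 1 library. Whether these transcripts came from other cells or from the CD8+ cells themselves was not tested. The part of other cells in the values of Il7r, Socs2 and Cish was not tested.

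One of the 10 genes, Il7r, was called in the averaged GFP comparison, where 44 of 14173 genes were called (0.31%), and over the 10 libraries it was again 1 of 10 where 1.08% of 14747 genes were called. None of the 10 was called between GFP+ and GFP- cells in the non-treated libraries alone (0.00706% of all genes called, 0.339% over the 10 libraries). After anti-PD-L1 none was called over all 12 libraries (0.0282%) and 1, Il7r, over the 10 (0.17%). At an unadjusted p under 0.05 stood Il7r and Il2rg in the non-treated comparison (6.05% of all genes) and Il7r and Il2ra after anti-PD-L1 (4.08%). DESeq2 called Il7r in each of these treatments (adjusted p = 0.0252 and 0.00695) and no other of the 10. For the averaged treatment comparison, 0 of the 10 were called over all 12 libraries (0.395% of all genes) and 2, Il7r and Il2rb, over the 10 (1.36%), with 5 of the 10 at an unadjusted p under 0.05 over all 12 libraries (7.67% of all genes), and DESeq2 called Il7r (adjusted p = 0.00389). Shares of all genes called for treatment within GFP+ cells were 0.0141% and 0.563%, within GFP- cells 0% and 0.373%, and for the interaction 0% in both sets. None of the 10 was called within GFP+ or GFP- cells or for the interaction over all 12 libraries, where 3, 1 and 0 of them stood at an unadjusted p under 0.05 (6.74%, 3.44% and 2.08% of all genes), and DESeq2 called none of them there. The median log2 fold change of the 10 genes for GFP was 0.06, against 0.00384 over all genes tested, and 4 of the 10 were lower. Over the 10 libraries 5 of the 10 were lower.

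Il2ra encodes the alpha chain that gives the IL-2 receptor its high affinity, and activated T cells and regulatory T cells carry it. In non-treated cells it was at 46.1, 70.5 and 49.3 CPM in GFP- and 60.8, 67.9 and 42.1 in GFP+ libraries, which overlapped. After anti-PD-L1 it was at 61.8, 90.1 and 55.9 in GFP- and 45.0, 48.6 and 44.9 in GFP+ libraries, where every GFP+ library was lower. Of all genes tested, 5.33% were lower in every GFP+ library after anti-PD-L1. The log2 fold change of Il2ra for GFP was 0.04 in non-treated cells (95% interval -0.45 to 0.53) and -0.59 after anti-PD-L1 (-1.07 to -0.10, unadjusted p = 0.0224, adjusted p = 0.993). The first turned to -0.01 over the 10 libraries, and the second was -0.63. The difference between treatments, tested as the interaction, was -0.63 (95% interval -1.32 to 0.06, unadjusted p = 0.0715) and was not called. Foxp3, the regulatory T cell factor, was at 16.6, 24.9 and 15.9 CPM in the anti-PD-L1 GFP- and 6.44, 15.3 and 11.8 in the anti-PD-L1 GFP+ libraries, also lower in every GFP+ library, and its part in the result for Il2ra was not tested.

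Il15ra, which binds IL-15 and presents it to neighbouring cells, could be read with the least precision. It was at 6.64, 8.78 and 11.9 CPM in non-treated GFP- and 0.890, 10.5 and 8.97 in non-treated GFP+ libraries, and at 11.2, 7.84 and 8.91 in GFP- and 10.9, 2.65 and 10.2 in GFP+ libraries after anti-PD-L1. The low values are KT13, with 10 counts, and KT21, with 35 counts, where the other 10 libraries had at least 110. Averaged over treatments the log2 fold change for GFP was -0.32 (95% interval -1.27 to 0.63) over all 12 and 0.14 (-0.28 to 0.56) over the 10 libraries, so its direction turned when KT13 and KT21 were left out.

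Il21r, the IL-21 receptor chain, had overlapping GFP groups in both treatments. Its non-treated values were 163, 133 and 154 CPM in GFP- and 148, 141 and 146 in GFP+ libraries. The anti-PD-L1 values were 155, 164 and 184 CPM in GFP- and 165, 244 and 205 in GFP+ libraries. For treatment the averaged log2 fold change was 0.33 (95% interval 0.09 to 0.58, unadjusted p = 0.0119, adjusted p = 0.419), and 0.27 over the 10 libraries. The highest value, 244 CPM, was that of KT21.

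Il4ra, the chain of the IL-4 and IL-13 receptors, had overlapping GFP groups as well. The values were 81.5, 70.6 and 109 CPM in non-treated GFP- and 79.6, 103 and 112 in non-treated GFP+ libraries, and 60.3, 72.6 and 100.5 in GFP- and 95.4, 100.5 and 101 in GFP+ libraries after anti-PD-L1. The averaged log2 fold change for GFP was 0.26 (95% interval -0.06 to 0.58), and 0.32 (0.06 to 0.59) over the 10 libraries with an adjusted p of 0.35. It was the private chain with the highest GFP difference in the upward direction, and it was not called.

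The shared chains lay on opposite sides of 0 for GFP, and neither was called. Il2rb was at 962, 999.9 and 924 CPM in non-treated GFP- and 1202, 1014 and 937 in non-treated GFP+ libraries, and at 1181, 1080.2 and 1107 in GFP- and 1186, 1234 and 1244 in GFP+ libraries after anti-PD-L1. Its averaged log2 fold change for GFP was 0.12 (95% interval -0.07 to 0.32), and 0.07 over the 10 libraries. For treatment it was 0.22 over all 12 (adjusted p = 0.57) and 0.27 over the 10 libraries (95% interval 0.13 to 0.41, adjusted p = 0.0477), where the anti-PD-L1 libraries were higher in GFP+ and in GFP- cells. In that set 19.6% of all genes were higher in every anti-PD-L1 library within GFP+ cells, and 5.95% within GFP- cells. KT13, at 1202 CPM of Il2rb, was the highest non-treated library.

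Il2rg, which every receptor of the family needs, was lower in each GFP+ than each GFP- library of its treatment, as 1.03% of genes were. It was at 499.7, 494 and 613 CPM in non-treated GFP- and 267, 488 and 412 in non-treated GFP+ libraries. The anti-PD-L1 libraries had 509, 512 and 617 CPM in GFP- and 484, 429.7 and 464 in GFP+ libraries. The averaged log2 fold change was -0.36 (95% interval -0.65 to -0.06, unadjusted p = 0.0221), which the adjustment over all genes did not call (adjusted p = 0.515). An exact permutation test within treatments, two-sided and for this gene alone, gave p = 0.005. Without KT13, at 267 CPM the lowest of all, and KT21, the log2 fold change was -0.23 (-0.41 to -0.05, adjusted p = 0.316; exact permutation p = 0.05).

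**Figure D2:**
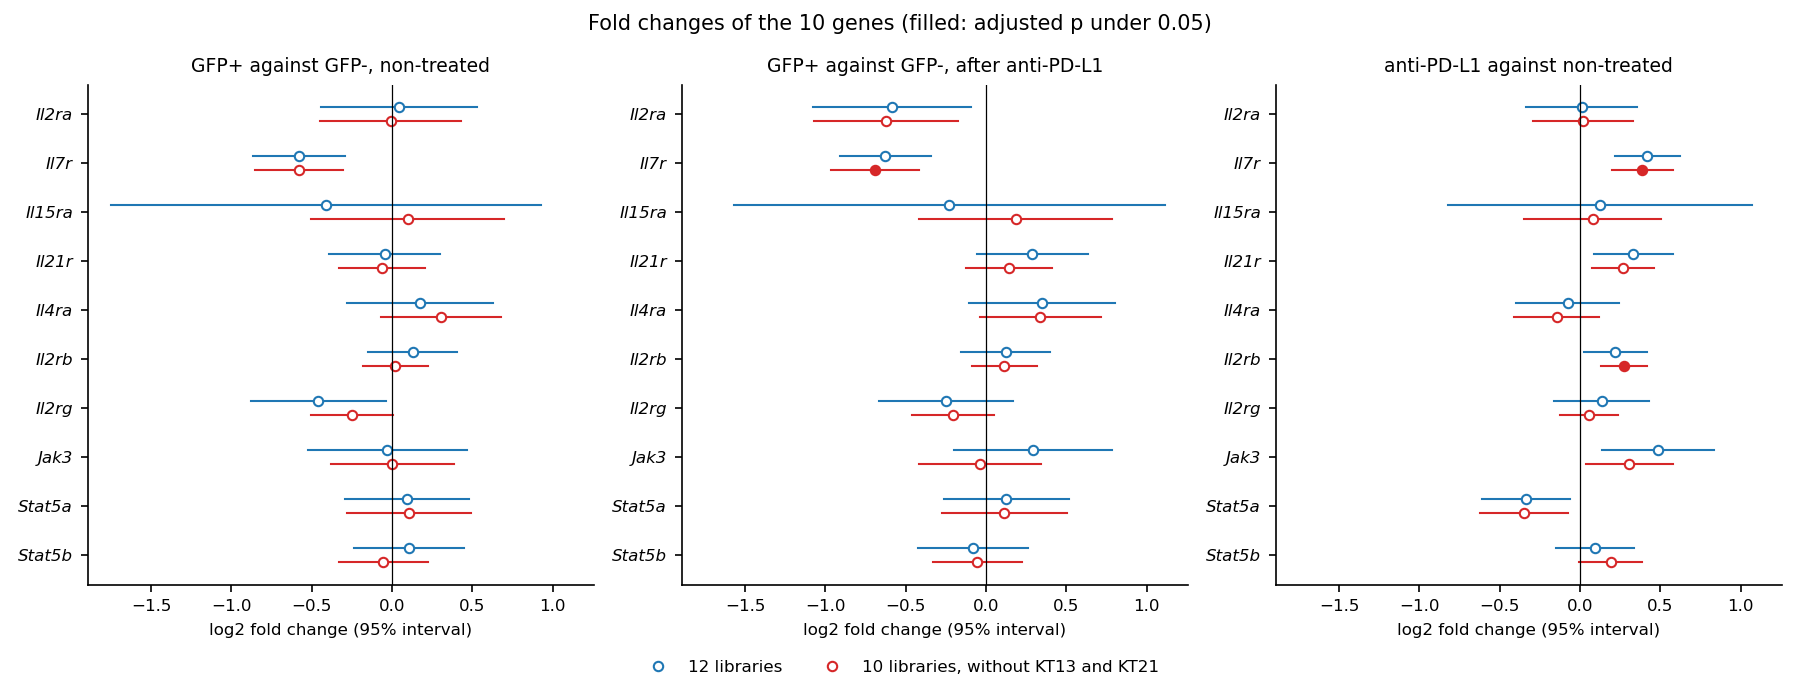
Log2 fold changes of the 10 genes with 95% intervals from edgeR (horizontal axis) for GFP+ against GFP- in non-treated cells, for the same after anti-PD-L1, and for anti-PD-L1 against non-treated averaged over GFP, over 12 libraries (blue) and over the 10 without KT13 and KT21 (red), filled where the adjusted p is under 0.05. Il7r lies left of 0 in both GFP panels and right of 0 for treatment, and the interval of Il15ra narrows without KT13 and KT21.

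Jak3 had overlapping GFP groups in both treatments. It was at 27.8, 26.1 and 27.8 CPM in non-treated GFP- and 25.5, 27.8 and 26.7 in non-treated GFP+ libraries. After anti-PD-L1 it was at 31.5, 39.9 and 30.8 in GFP- and 27.2, 58.7 and 39.3 in GFP+ libraries, with the highest value in KT21. For treatment the averaged log2 fold change was 0.48 (95% interval 0.13 to 0.83, adjusted p = 0.389), and 0.31 (adjusted p = 0.36) over the 10 libraries.

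Both STAT5 genes had overlapping GFP groups. Stat5a was at 34.4, 39.8 and 33.2 CPM in non-treated GFP- and 37.5, 44.9 and 32.1 in non-treated GFP+ libraries, and at 31.2, 23.2 and 29.7 in GFP- and 27.4, 31.1 and 33.3 in GFP+ libraries after anti-PD-L1. It was the one of the 10 genes with an unadjusted p under 0.05 toward lower values after anti-PD-L1, at a log2 fold change of -0.34 (95% interval -0.61 to -0.06, unadjusted p = 0.0204, adjusted p = 0.518), and -0.35 over the 10 libraries. Stat5b was at 82.6, 89.8 and 88.9 CPM in non-treated GFP- and 113, 82.4 and 85.3 in non-treated GFP+ libraries, and at 90.1, 98.9 and 108 in GFP- and 86.2, 89.6 and 105 in GFP+ libraries after anti-PD-L1. The averaged log2 fold changes for GFP were 0.11 for Stat5a (95% interval -0.17 to 0.38) and 0.01 for Stat5b (-0.23 to 0.25), and 0.11 and -0.06 over the 10 libraries. Phosphorylation of STAT5, the step that activates it, is not measured by RNA.

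The genes whose pattern over the 12 libraries was most like that of each of the 10 were found by Pearson's r of log2(CPM + 0.5), as a description of libraries that share groups and depth. Il7r followed Gzma, a granzyme (r = 0.899), AA467197 (0.89) and Glrx (0.884). Il2rg followed Irf9, a factor of interferon signalling (0.967), and Irf9 was again the closest over the 10 libraries (0.924). Il2ra followed Btbd2 in both sets (0.855 and 0.918). For Il2rb it was Adamts14 (0.966) over 12 libraries and Nrp1 (0.968) over 10, for Jak3 Batf (0.931) and Gnb1 (0.968), and for Il21r Higd1a (0.947) and Gpr162 (0.94). Il15ra was closest to Gm13094 (0.982) over 12 and Scd1 (0.932) over 10, Il4ra to Pink1 (0.898) and Rpl31-ps4 (0.982), Stat5a to Gm13886 (0.846) and Ankrd13b (0.917), and Stat5b to Gm23639 (0.886) and Madd (0.951). Among the 10 genes, only Il2ra and Il2rg kept the same closest gene in both sets.

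The other genes of the pathway were read from a list of 41 ligands, receptor chains, kinases, STATs, inhibitors and adaptors, of which 37 were tested. For GFP averaged over treatments, 1 was called, Socs2 (lower), and 23 of 37 were lower with a median log2 fold change of -0.08, where 0.31% of all genes were called and 49.4% were lower. Over the 10 libraries 2 of 38 were called, Socs2 and Cish, both lower, and 19 of 38 were lower, where 1.08% of all genes were called and 50.7% were lower. Treatment called none of the list in either set, with 4 of 37 at an unadjusted p under 0.05 over all 12 libraries (7.67% of all genes).

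Of the ligands, Il2 transcript was present in every library, at 56.9, 42.2 and 33.3 CPM in non-treated GFP-, 27.7, 26.9 and 40.7 in non-treated GFP+, 42.5, 53.3 and 44.9 in anti-PD-L1 GFP- and 37.9, 54.4 and 39.5 in anti-PD-L1 GFP+ libraries. Its log2 fold change for GFP was -0.28 (95% interval -0.63 to 0.07). Il15 was at most 2.72 CPM and Il21 at most 0.963 CPM, with overlapping GFP groups. Il4 had 2 counts in 1 library, Il7 at most 27 counts in a library, and Il9 none in any library, so these transcripts were at or near the limit of detection. Il9r, the IL-9 receptor chain, reached 1.71 CPM in KT15 and was at most 0.551 CPM elsewhere.

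Jak1, the partner kinase of Jak3, was between 597 and 882 CPM, with the highest value in KT21, and its log2 fold change for GFP was 0.11 (95% interval -0.12 to 0.34). Those of Jak2 and Tyk2 were 0.20 and -0.02. Stat2, a factor of interferon signalling, was at -0.14, Stat3 at -0.10, Stat4 at 0.11 and Stat6 at 0.25, none of them called. Over the 10 libraries Stat2 was at -0.35 (adjusted p = 0.176), with every remaining GFP+ library lower, while KT13 and KT21 had the highest values of their groups. In that set 12.9% of all genes were lower in every GFP+ library in non-treated cells, and 10.6% after anti-PD-L1. The remaining receptor chains, Il13ra1 (-0.09) and Crlf2 (-0.07), were not called for GFP. Crlf2, which binds TSLP together with the IL-7 receptor chain, had a log2 fold change of 0.32 for treatment (adjusted p = 0.515). Sh2b3, an inhibitor of JAK2 signalling, had the smallest p of the list for treatment, at -0.50 (adjusted p = 0.398), followed by Crlf2, Pias2 (0.32) and Grb2 (0.22), and Pik3r1 was at 0.42 for GFP (adjusted p = 0.581).

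Transcripts of 26 STAT5 target genes were read, a list written down from general knowledge but with earlier results of these data known. The list is therefore not independent evidence of its direction. The paper used a published STAT5 signature instead, which was not used here. All 26 were tested. Averaged over treatments, 17 of the 26 were lower in GFP+ cells, and the median log2 fold change was -0.15, where the median over all genes tested was 0.00384 and 49.4% of them were lower. One of the 26 was called, Socs2, against 0.31% of all genes. Over the 10 libraries 17 were again lower with a median of -0.11, and 5 were called against 1.08% of all genes, Socs2, Cish, Lta and Id2 lower and Myc higher. By role, 3 of 4 feedback inhibitors, 3 of 4 growth and cycle genes, 8 of 10 effector and signalling genes, 2 of 3 transcription factors and 1 of 5 survival genes were lower. The 10 receptor, kinase and STAT genes, by comparison, had 4 lower genes and a median of 0.06 over all 12 libraries, and 5 lower genes and a median of 0.01 over the 10.

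Socs2, a feedback inhibitor of cytokine receptors, was lower in every GFP+ library. It was at 36.1, 37.2 and 49.5 CPM in non-treated GFP- and 22.7, 25.5 and 25.5 in non-treated GFP+ libraries, and at 41.4, 44.8 and 42.7 in GFP- and 22.7, 24.5 and 26.8 in GFP+ libraries after anti-PD-L1. The averaged log2 fold change was -0.77 (SE 0.118, adjusted p = 0.0118), and -0.74 (adjusted p = 0.00194) over the 10 libraries. It was -0.74 in non-treated cells and -0.80 after anti-PD-L1. The averaged call was lost, at an adjusted p of up to 0.0657, when KT18, KT22 or KT24 was left out, all GFP- libraries.

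Cish, which encodes the STAT5-induced inhibitor CIS, was likewise lower in every GFP+ library, at 419, 466 and 411 CPM in non-treated GFP- and 273, 326 and 263 in non-treated GFP+ libraries. After anti-PD-L1 it was at 362, 429.6 and 463 in GFP- and 271, 205 and 324 in GFP+ libraries. The averaged log2 fold change was -0.62 (SE 0.125, adjusted p = 0.0538), just short of the threshold, and -0.52 over the 10 libraries (adjusted p = 0.00312), where it was called. Leaving out KT21 or KT23 alone also brought the adjusted p under 0.05. Exact permutation within treatments, two-sided, gave p = 0.005 for Cish and for Socs2 over all 12 libraries.

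**Figure D3:**
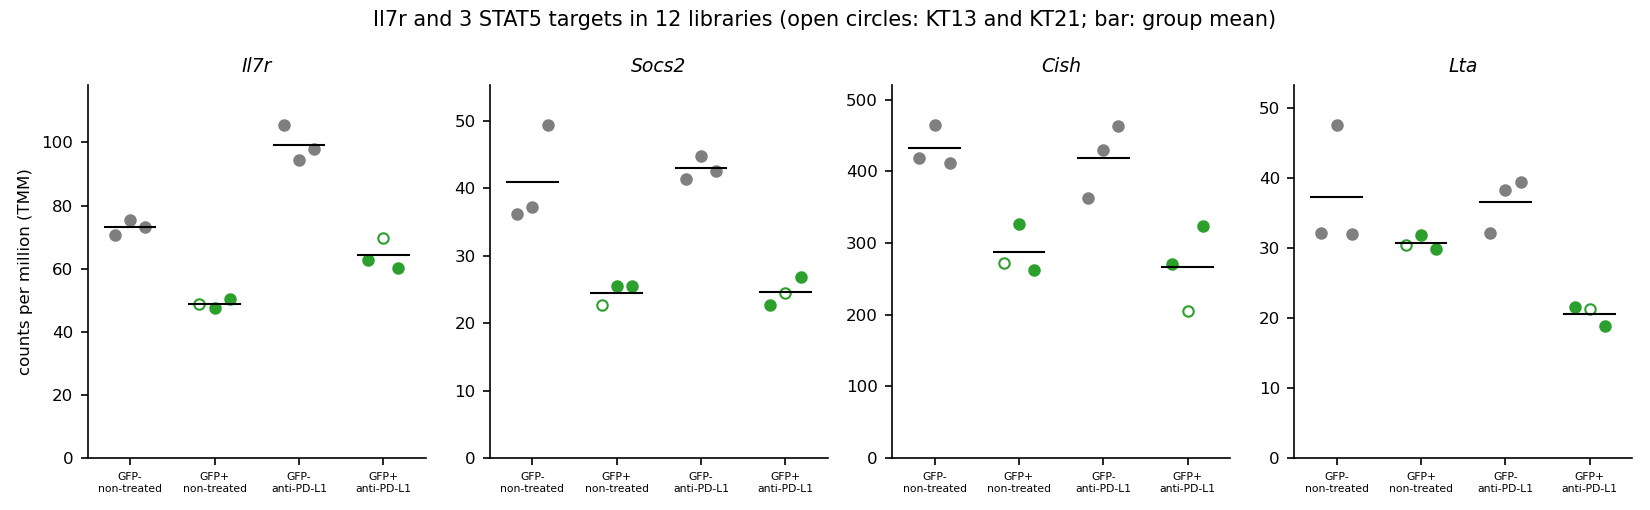
TMM-normalized CPM (vertical axis, from 0) of Il7r and of the STAT5 targets Socs2, Cish and Lta in each of the 12 libraries, by GFP and treatment, with a bar at the mean of each group of 3 and open circles for KT13 and KT21. In each panel the GFP+ libraries lie below the GFP- libraries of the same treatment, and Il7r is the one of the 4 whose anti-PD-L1 libraries all lie above the non-treated libraries of the same GFP group.

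Lta and Id2 were the other targets with no overlap of GFP groups in both treatments that were called over the 10 libraries. Lta was at 32.2, 47.6 and 31.9 CPM in non-treated GFP- and 30.4, 31.8 and 29.8 in non-treated GFP+ libraries, and at 32.0, 38.2 and 39.3 in GFP- and 21.5, 21.3 and 18.8 in GFP+ libraries after anti-PD-L1. Its log2 fold change was -0.28 in non-treated cells and -0.83 after anti-PD-L1, and -0.55 averaged (adjusted p = 0.124, and 0.04 over the 10 libraries). Id2, a regulator of effector differentiation, had an averaged log2 fold change of -0.60 (adjusted p = 0.275, and 0.0307 over the 10 libraries). Cdk6, a cell cycle kinase, was also lower in every GFP+ library, at -0.30 (adjusted p = 0.494), and was not called in either set.

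Other targets went elsewhere. Myc, which drives growth, was at 0.67 for GFP over all 12 libraries (adjusted p = 0.515) and was called higher, at 0.87 (adjusted p = 0.0189), over the 10. It was at 21.7, 25.5 and 21.0 CPM in non-treated GFP+ against 9.19, 13.9 and 16.2 in non-treated GFP- libraries, and KT21, at 5.76 CPM, was the lowest of all. The survival genes Bcl2 (0.07), Mcl1 (0.04), Pim1 (-0.06) and Pim2 (0.06) had 95% intervals that spanned 0, and that of Bcl2 ran from -0.14 to 0.27. Socs1, a further feedback inhibitor, was at -0.44 (adjusted p = 0.609), with 33.7 CPM in KT21 and 90.6 or more in the other libraries. The effector genes Gzmb, Prf1 and Ifng were at -0.61, -0.16 and -0.19, none of them called, and Gzmb was at -0.34 over the 10 libraries. Prf1 was at -0.40 in non-treated cells and 0.07 after anti-PD-L1, with an interaction of 0.47 over all 12 libraries (unadjusted p = 0.136) and 0.70 over the 10 (unadjusted p = 0.0022, adjusted p = 1). Ifng was at -0.34 and -0.03, with an interaction of 0.31 and 0.46 in the same sets (adjusted p = 1 and 1).

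For treatment, the feedback inhibitors were read beside Il7r. Cish had a log2 fold change of -0.08 (95% interval -0.34 to 0.19) and Socs2 of 0.04 (-0.21 to 0.29). Socs1 was at -0.37 (-0.81 to 0.07, adjusted p = 0.764), and at -0.18 over the 10 libraries. These values stand beside 0.42 for Il7r (0.22 to 0.62). Differences between these genes were not tested. Prf1, which encodes perforin, rose after anti-PD-L1, at 1.47 (SE 0.153, adjusted p = 0.00209), and Prdm1, which encodes the effector factor BLIMP-1, rose by 1.05 (adjusted p = 0.0485). The call of Prf1 held in all 12 fits that left out 1 library, and that of Prdm1 held only without KT21 among them, with an adjusted p of up to 0.154. Over the 10 libraries Gzmb (0.90), Ifng (0.47) and Id2 (0.65) were called higher as well. Bcl2 (-0.29), Pim1 (-0.23) and Myc (-0.63) were not called, and 15 of the 26 targets were lower, with a median of -0.05, where 51.2% of all genes were lower. The 2 of 26 called over all 12 libraries and the 5 over the 10 stand against 0.395% and 1.36% of all genes.

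**Figure D4:**
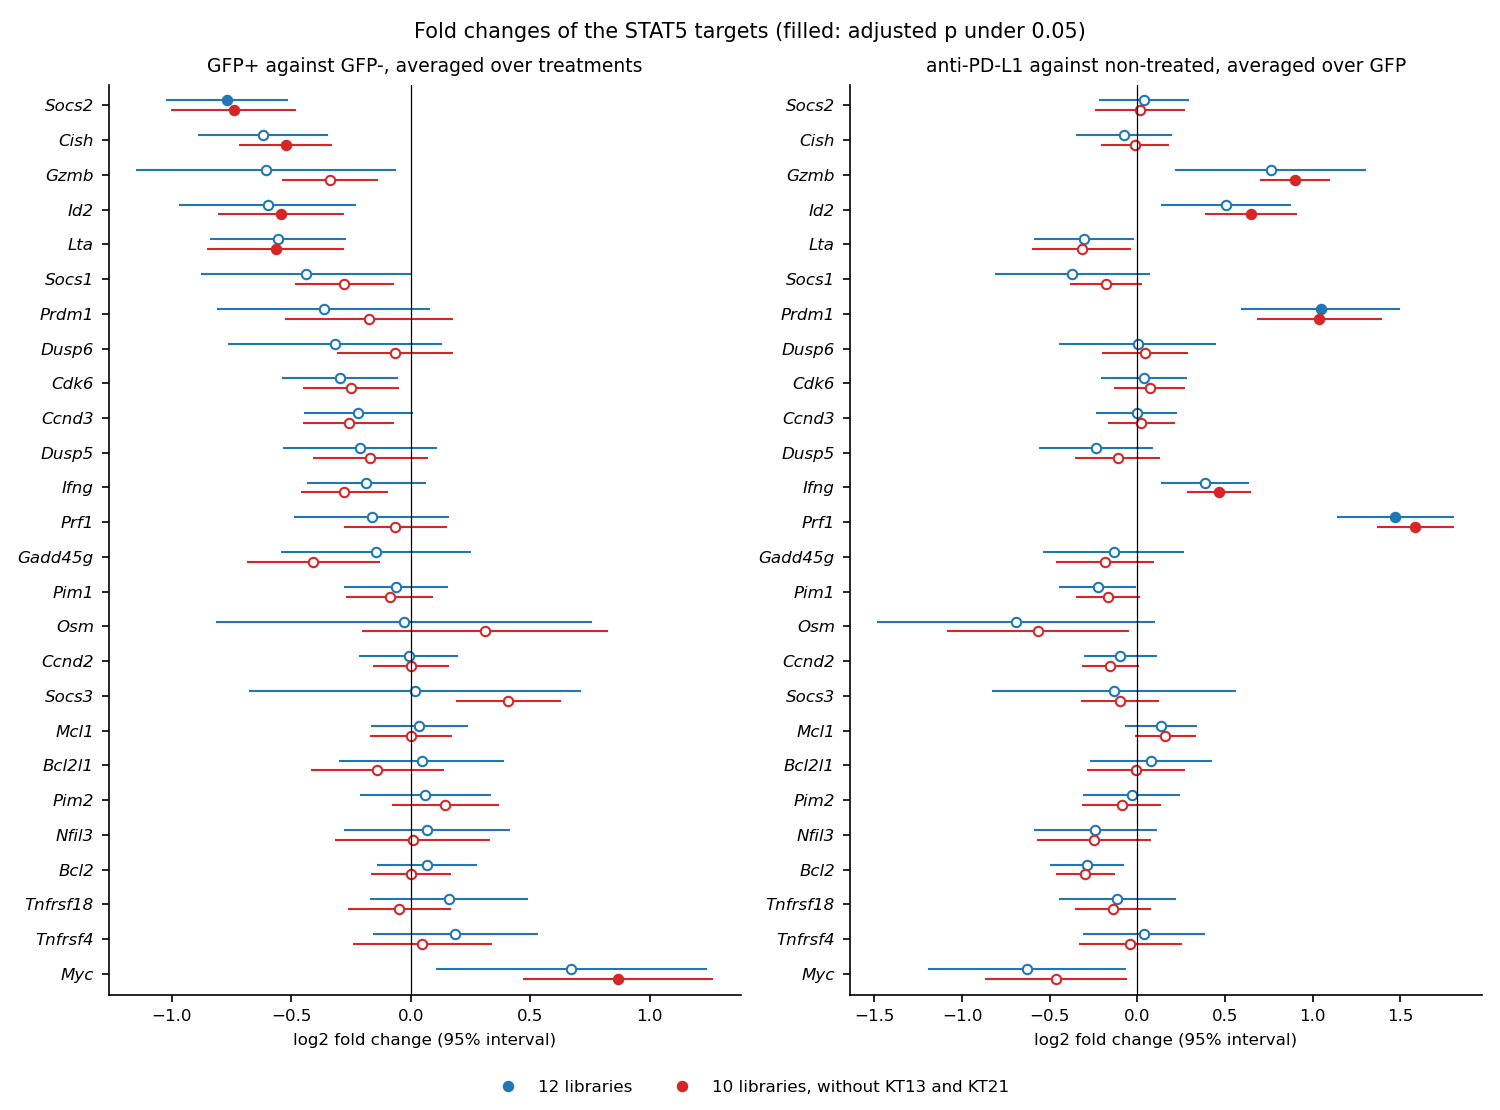
Log2 fold changes of the 26 STAT5 targets with 95% intervals from edgeR (horizontal axes, on different scales), ordered by their GFP value over 12 libraries, for GFP+ against GFP- averaged over treatments and for anti-PD-L1 against non-treated averaged over GFP, over 12 libraries (blue) and over the 10 without KT13 and KT21 (red), filled where the adjusted p is under 0.05. Socs2 and Cish lie lowest for GFP and near 0 for treatment, and Prf1 and Prdm1 lie highest for treatment.

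A score, the mean over the 26 targets of log2(CPM + 0.5) after scaling each gene over the libraries, was 0.353, 0.414 and 0.134 in non-treated GFP- and -0.168, -0.144 and -0.313 in non-treated GFP+ libraries, which did not overlap. After anti-PD-L1 it was -0.103, 0.186 and 0.392 in GFP- and -0.24, -0.535 and 0.0237 in GFP+ libraries, which did. KT21 had the lowest score of the 12.

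Other receptors were read to see where Il7r stood among them. Of 18 chains of other cytokine receptors, 17 were tested and none was called for GFP or treatment over all 12 libraries, with 3 and 4 at an unadjusted p under 0.05 (8.18% and 7.67% of all genes). Il6ra, the IL-6 receptor chain, was lower in every GFP+ library, at 9.93, 8.32 and 12.4 CPM in non-treated GFP-, 1.34, 2.47 and 4.58 in non-treated GFP+, 8.03, 5.49 and 5.96 in anti-PD-L1 GFP- and 3.74, 3.11 and 1.56 in anti-PD-L1 GFP+ libraries. Its log2 fold change was -1.53 (adjusted p = 0.0538, and 0.0118 over the 10 libraries, where it was called). Il6st, the signalling chain of the same receptor, was higher in every GFP+ library, at 0.75 (adjusted p = 0.126), and DESeq2 called both genes (adjusted p = 0.00064 and 0.0159). Il1r2 and Ifngr1 were at 0.52 and 0.32 for GFP. For treatment, Il18r1 had the smallest p, at 0.36 (adjusted p = 0.266, and 0.0429 over the 10 libraries), followed by Il1r2 (0.71), Il18rap (0.38) and Tgfbr1 (-0.35).

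FOXO1 is known to drive Il7r in T cells together with Klf2 and Ccr7, and KLF2 in turn drives S1pr1. A list of 8 genes of this program had none called for GFP in either set, with 1 and 2 at an unadjusted p under 0.05 (8.18% and 10.3% of all genes), and 4 of 8 were lower over all 12 libraries but 1 of 8 over the 10. Klf2 was at 0.08 for GFP (95% interval -0.28 to 0.45), Foxo1 at -0.16, S1pr1 at -0.15 and Lef1 at 0.46. All 8 over the 12 libraries, and 7 of 8 over the 10, were lower after anti-PD-L1, with a median log2 fold change of -0.25 over the 12, where 51.2% and 50.2% of all genes were lower. Klf2 fell by 0.96 on the log2 scale (adjusted p = 0.0239) and was the one of the 8 called, against 0.395% of all genes, a call lost when KT14, KT17, KT18, KT20, KT22, KT23 or KT24 was left out, and Ccr7 (-0.46), Tcf7 (-0.43) and Lef1 (-0.46) were not called.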

How the data were processed

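QuantSeq 3′ RNA-sequencing was done by the authors on 12 libraries of sorted CD8+ cells. The deposited table holds raw counts of reads per Ensembl gene, 1 column per library, which the authors made from 75 bp single-end reads with Cutadapt, HISAT2 on mm10 and featureCounts. The submitters' processing notes give cutadapt 1.7 and Subread 1.6.4, and the published methods name other versions. Strand handling and the Ensembl release are not given in the sources used here. Symbols came from GENCODE and matched 52403 of 52636 identifiers, and every column was used.

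Counts were normalized by TMM and tested in edgeR 4.0.16 (R 4.3.3) with the quasi-likelihood F test, after filterByExpr on the 4 groups, in 1 fit over all 12 libraries with no covariates. P-values were adjusted by Benjamini-Hochberg over the 14173 genes tested with a threshold of 0.05. Intervals are 95% from the same fit. CPM are TMM-normalized. Single genes were also tested by exact two-sided permutation of log2(CPM + 0.5); 3 libraries against 3 cannot go below p = 0.1. The fit was also run on simulated data, and no outcome of that run is reported or used here. Alternatives were the 10 libraries without KT13 and KT21, upper-quartile factors, DESeq2 1.42.0, at least 10 counts in every library, a total of 1 count as the sole filter, fits restricted to the compared groups, a pseudocount of 5 and leaving out each library.

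The labels do not say whether libraries are from separate experiments, so p-values measure the spread between these libraries. Library totals of 11292699 to 19023900 reads carry no molecular identifiers. Within groups, chi-square per degree of freedom was at least 11.9, so no library copied another of its group. Libraries of different groups were not compared in this way. The 10 genes and all gene lists were chosen with earlier results of these data known. Named were the 10 genes, Adora2a, all ligands, receptor chains, kinases and STATs of the pathway list except what is not reported here, 9 set STAT5 targets (Cish, Socs1, Socs2, Pim1, Bcl2, Myc, Gzmb, Prf1, Ifng), the called genes of each list and, up to 4, those with the smallest p, with further genes where a sentence turns on them.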

Additional observations from a re-analysis of the deposited data

How the results depend on the processing

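Results were recomputed under 7 settings and with each library left out. Upper-quartile scaling and a minimum of 10 counts in every library left the counts of called genes within 1.5 times of those given. Without KT13 and KT21 the genes called for GFP were 50 in non-treated cells, 25 after anti-PD-L1 and 159 averaged, and for treatment 83 in GFP+ cells, 55 in GFP- cells and 201 averaged. DESeq2 gave 53, 38, 158, 89, 33 and 180 in the same order, and no filter beyond 1 count gave 78, 49, 204, 123, 60 and 223, with 10 for the interaction. Fits restricted to the compared groups called 0 genes for GFP after anti-PD-L1, 0 for treatment in GFP+ cells and 51 in GFP- cells. Of the 10 receptor, kinase and STAT genes, 1 was called for GFP after anti-PD-L1 and 2 for averaged treatment without KT13 and KT21, and DESeq2 called 1 for GFP in non-treated cells, 1 after anti-PD-L1 and 1 for averaged treatment.

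Without KT13 and KT21 the log2 fold change for GFP turned for Il2ra in non-treated cells (-0.0086), for Il15ra (0.10 in non-treated cells, 0.18 after anti-PD-L1, 0.14 averaged), for Jak3 (0.00095, -0.038 and -0.019) and for Stat5b in non-treated cells (-0.056) and averaged (-0.055). Upper-quartile scaling turned Il2ra for treatment (-0.0060). With 1 library left out, called genes numbered 0 to 6 for GFP in non-treated cells, 0 to 7 after anti-PD-L1, 13 to 50 averaged, 0 to 34 for treatment in GFP+ cells, 0 to 28 in GFP- cells and 27 to 90 averaged, and the 10 genes had 0 to 1 called for averaged GFP. In non-treated cells Il2ra then lay between -0.11 and 0.24, Il21r between -0.14 and 0.016, Il15ra between -0.86 and 0.095, Jak3 between -0.069 and 0.00058, Stat5b between -0.056 and 0.19 and Stat5a between -0.042 and 0.20. After anti-PD-L1 Il15ra lay between -0.53 and 0.18 and Jak3 between -0.038 and 0.52, and averaged Stat5b lay between -0.071 and 0.055 and Jak3 between -0.034 and 0.25. For treatment the ranges were -0.10 to 0.15 for Il2ra, -0.0024 to 0.12 for Socs2, -0.18 to 0.022 for Il4ra, -0.13 to 0.35 for Il15ra and -0.15 to 0.0049 for Cish, and the interaction of Il7r ran from -0.11 to 0.014. Of all values recomputed with 1 library left out, 1202 kept their direction and side of the threshold or stayed within their spread, 74 lost and 4 gained a call, 29 turned and 47 moved beyond these bounds, and under the other settings the numbers were 554, 1, 33, 10 and 39. The causes were not tested. No paired analysis was made, because the labels give no replicate numbers shared by the groups. The library codes alternate between GFP+ and GFP-, and a fit that pairs neighbouring codes was not run. Il15ra had the fewest counts of the 10 genes, 10 to 195 in a library.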
